A study of Mus musculus with 6 samples.

Results

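The abundance of 41 transcripts used as markers of macrophages, monocytes and dendritic cells was examined in uteri of females labelled C57BL/6 (C57BL/6J in the methods), 3 control and 3 *Gp130* ecKO, which were taken whole at 1600 h on day 4 of pregnancy. The 41 genes were taken by symbol from the 56748 gene identifiers in the RNA-seq tables, and each symbol matched 1 identifier. *Gp130* ecKO females carried 1 *Ltf*-iCre allele and floxed *Gp130*, the gene of a receptor subunit shared by cytokines of the interleukin 6 family and listed as *Il6st*. Control females are labelled wildtype, and the methods describe them as floxed without iCre or wildtype. All females were sexually mature and over 8 weeks old. *Ltf* is active in the uterine epithelium but not there alone. The study's discussion points to its expression in some immune cells, macrophages included, whose function the deletion affects. It proposes that the macrophage infiltration it saw was probably secondary to weaker progesterone signalling. Whether iCre acted in the cells that express the marker genes was not tested here. The comparison addresses how the deletion of *Gp130* alters gene expression in the uterus shortly before embryo attachment, a stage at which the study also stained sections for F4/80, the protein of *Adgre1*.

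Macrophages take up dying cells and debris, recognise antibody-coated particles through Fc receptors and make the C1q proteins that start the classical complement pathway. Dendritic cells carry antigens to T cells. Both lineages depend on the transcription factor PU.1, encoded by *Spi1*, and some of their cells also on the transcription factor IRF8. In the uterus before implantation, macrophages and dendritic cells lie in the stroma around the epithelium, and their numbers and positions change with ovarian hormones and mating.

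The deposited expected counts summed to between 13960748, in control 3, and 25906443, in control 2, and the 3 *Gp130* ecKO libraries held 22930513 to 25550809. Levels are given as CPM, counts scaled to a common library size with TMM factors, and levels of different genes are compared only as TPM, which takes transcript length into account. Differences are log2 fold changes of *Gp130* ecKO over control from edgeR's quasi-likelihood test, with p-values adjusted over all 16605 genes tested, and a difference in brackets is that log2 fold change ± its standard error. *Il6st* itself was 631, 678 and 452 CPM across controls 1 to 3 against 388, 349.8 and 362 CPM across *Gp130* ecKO 1 to 3 (difference -0.68, adjusted p = 0.1196). The labels do not say whether a uterus is 1 animal, so the p-values measure only the spread between these samples.

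Most of the marker transcripts had lower values in *Gp130* ecKO than in control uteri, by a median of -0.69 on the log2 scale, but none passed the adjusted threshold. Counts sufficed for a test in 38 of the 41 genes. The fitted log2 fold change was below 0 in 30 of the 38, or 78.9%, beside 52.9% of all tested genes, whose median was -0.05. With an FDR under 0.05 and a change of more than 2-fold, 0 of the 38 were called, beside 0.157% of all tested genes. The lowest adjusted p was that of *Stab1*, 0.0770. edgeR's exact test called 4 of them lower (*Batf3*, *Gpnmb*, *Mrc1* and *Stab1*), and the likelihood ratio test and DESeq2 each called these and *Fcer1g*. These 3 tools called 7.54%, 7.93% and 9.31% of all tested genes. In RNA of a whole uterus, fewer cells of a type and less RNA per cell cannot be told apart.

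At an unadjusted p under 0.05, 13 of the 38 genes were lower (34.2%, beside 12.9% of all tested genes) and 1, *Laptm5*, was higher (2.6%, beside 12.1%). The lower 13 were *Fcgr2b*, *Fcgr3*, *Fcer1g*, *Spi1*, *Csf2rb2*, *Mrc1*, *Msr1*, *Stab1*, *Clec4n*, *Batf3*, *Nos2*, *Trem2* and *Gpnmb*. Single uteri moved this count. It was 20 without *Gp130* ecKO 2 (11.4% of all tested genes were then lower), 8 without control 3 (9.86%), 7 without *Gp130* ecKO 1 (7.8%) and 5 without *Gp130* ecKO 3 (10.3%), when 2 genes were higher. The 5 of 38 genes in that last fit, 13.2%, are close to the share of all genes. In CPM, every *Gp130* ecKO uterus lay below every control uterus in 12 genes (31.6%, beside 15.6% of all tested genes), and in *Laptm5* alone every one lay above (2.6%, beside 15.7%). Both directions together, 13 of 38 genes or 34.2% did not overlap, near the 31.3% of all tested genes. This separation depends on the measure. In the deposited TPM, *Gp130* ecKO 2 lay above the lowest control in *Aif1*, *Fcgr2b*, *Fcgr3*, *Trem2* and *Gpnmb*, so these groups overlapped. The share of all genes without overlap was not computed in TPM. Leaving out *Gp130* ecKO 2 raised the genes without overlap from 13 to 31 and moved the median to -1.22, while the share of all tested genes without overlap was then 42.1%. In *Msr1*, *Clec4n*, *Batf3*, *Nos2* and *Gpnmb* at least 1 *Gp130* ecKO uterus held fewer than 10 counts and every control uterus held 10 or more, so these 5 passed the filter on low counts largely through the control group. Without that filter the median of all 41 genes was -0.60, beside -0.08 for all genes fitted.

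**Figure D1:**
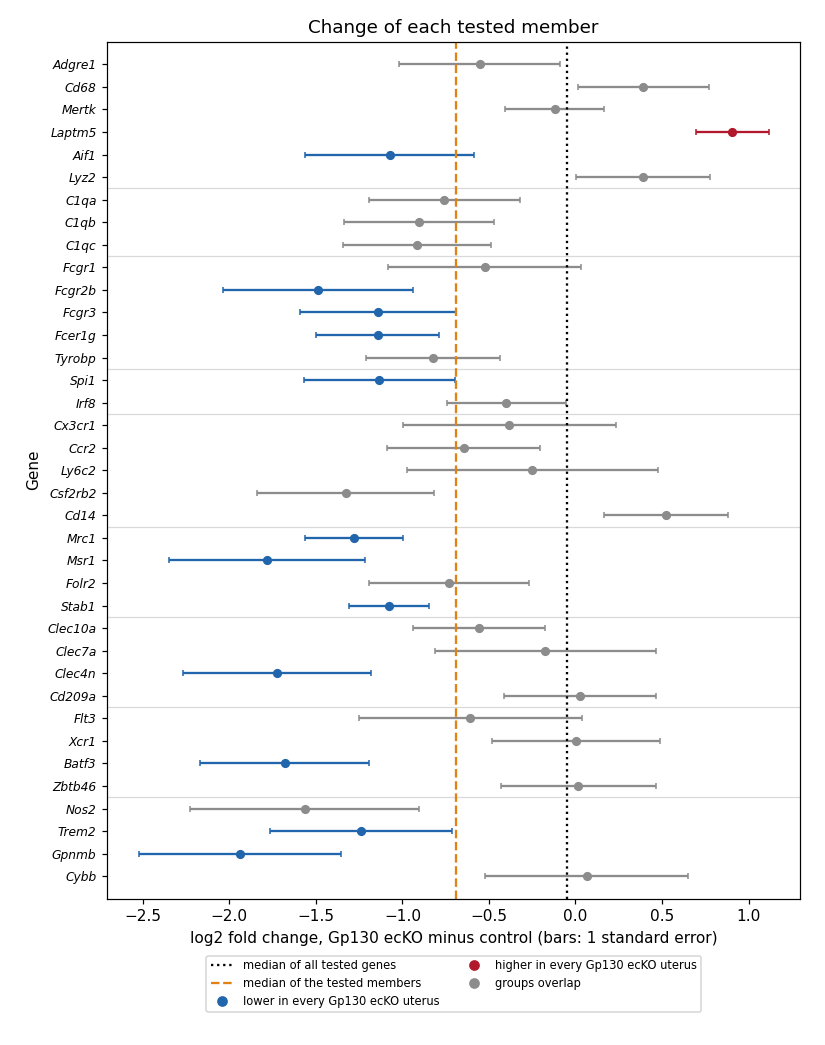
Log2 fold change of 37 of the 38 tested genes, *Gp130* ecKO minus control, with bars of 1 standard error and grey lines between role groups. Blue points, 12 genes, mark groups without overlap in CPM that are lower in *Gp130* ecKO, and the red point marks *Laptm5*, higher without overlap. The dashed line is the median of the 38 genes, -0.69, and the dotted line that of all tested genes, -0.05.

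Among the genes used to recognise macrophages, values were not of 1 direction. *Adgre1*, the gene of the surface receptor F4/80 (ENSMUSG00000004730, GRCm39 chromosome 17, 57665573 to 57790527), measured 8.41, 10.8 and 13.9 CPM across controls 1 to 3 against 3.98, 12.96 and 5.51 CPM across *Gp130* ecKO 1 to 3. *Gp130* ecKO 1 and 3 lay below every control, and *Gp130* ecKO 2 lay between controls 2 and 3. *Adgre1* differed by -0.55 ± 0.46 (adjusted p = 0.478) on the log2 scale. An exact two-sided permutation test of the 6 values gave p = 0.3, where the smallest p possible for 3 against 3 is 0.1. By staining, the study counted significantly more F4/80-positive cells in the stroma of *Gp130* ecKO than of control uteri. Cells counted by protein in stromal sections and RNA of a whole uterus are unlike measures, and how they relate was not tested. Left-out uteri moved the difference of *Adgre1* to between -1.21, without *Gp130* ecKO 2, and -0.25, without *Gp130* ecKO 1. *Aif1*, which encodes the actin-bundling protein IBA1, measured 8.698, 6.36 and 11.6 CPM across controls 1 to 3 against 1.63, 5.46 and 5.47 CPM across *Gp130* ecKO 1 to 3. The groups of *Aif1* did not overlap in CPM but did in TPM, and the difference missed the unadjusted threshold as well (difference -1.07 ± 0.49, adjusted p = 0.219). It was -0.69 without *Gp130* ecKO 1.

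*Laptm5* went the other way. This gene of a lysosomal membrane protein of haematopoietic cells (ENSMUSG00000028581, chromosome 4, 130638161 to 130663452) measured 61.1, 58.9 and 90.35 CPM across controls 1 to 3 against 137, 142 and 114.5 CPM across *Gp130* ecKO 1 to 3 (difference 0.91 ± 0.21, adjusted p = 0.0858). All 3 *Gp130* ecKO uteri lay above the highest control, control 3. Of its 75-base stretches, 2.81% also lie on the opposite strand of another gene. In the exact test, the likelihood ratio test and DESeq2 its adjusted p was 0.01943, 0.01825 and 0.00540, at a change of less than 2-fold in each, and over all alternatives it ran from 0.00540 to 0.2493. *Ptprc*, the gene of the pan-leukocyte protein CD45, measured 13.15, 15.6 and 38.7 CPM across controls 1 to 3 against 10.6, 23.4 and 5.555 CPM across *Gp130* ecKO 1 to 3, with overlapping groups and a difference of -0.76 ± 0.60 (adjusted p = 0.447). Transcripts of 5 uterine epithelial markers summed to between 1705 and 2602 CPM in controls and between 3801 and 5101 CPM in *Gp130* ecKO uteri, with 3 of the 5 (*Krt8*, *Krt19* and *Cdh1*, at 1.32, 2.19 and 0.66 on the log2 scale) higher at an unadjusted p under 0.05, beside 12.1% of all tested genes. *Epcam*, named from this list after its values were seen, differed by -0.19 with overlapping groups. The part of epithelial cells in the value of *Laptm5* was not tested.

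*Lyz2*, which encodes the secreted lysozyme of macrophages and neutrophils, was the most abundant of the 41 transcripts, with a mean of 295 TPM over the 6 uteri. It measured 230.5, 206 and 261 CPM across controls 1 to 3 against 466, 305 and 142 CPM across *Gp130* ecKO 1 to 3. *Gp130* ecKO 1 and 2 were above and *Gp130* ecKO 3 was below every control, so the spread within *Gp130* ecKO was wider than the difference between the groups (difference 0.39 ± 0.39, adjusted p = 0.5485). The log2 fold change of *Lyz2* was -0.05 without *Gp130* ecKO 1. *Cd68*, the gene of a lysosomal glycoprotein, shared this order of the *Gp130* ecKO uteri, from 25.8 CPM in *Gp130* ecKO 1 down to 9.16 CPM in *Gp130* ecKO 3, and its difference of 0.39 (adjusted p = 0.534) was -0.07 without *Gp130* ecKO 1. *Mertk*, whose receptor binds dying cells, was 7.28 to 12.8 CPM over all 6 uteri with a log2 fold change of -0.12.

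**Figure D2:**
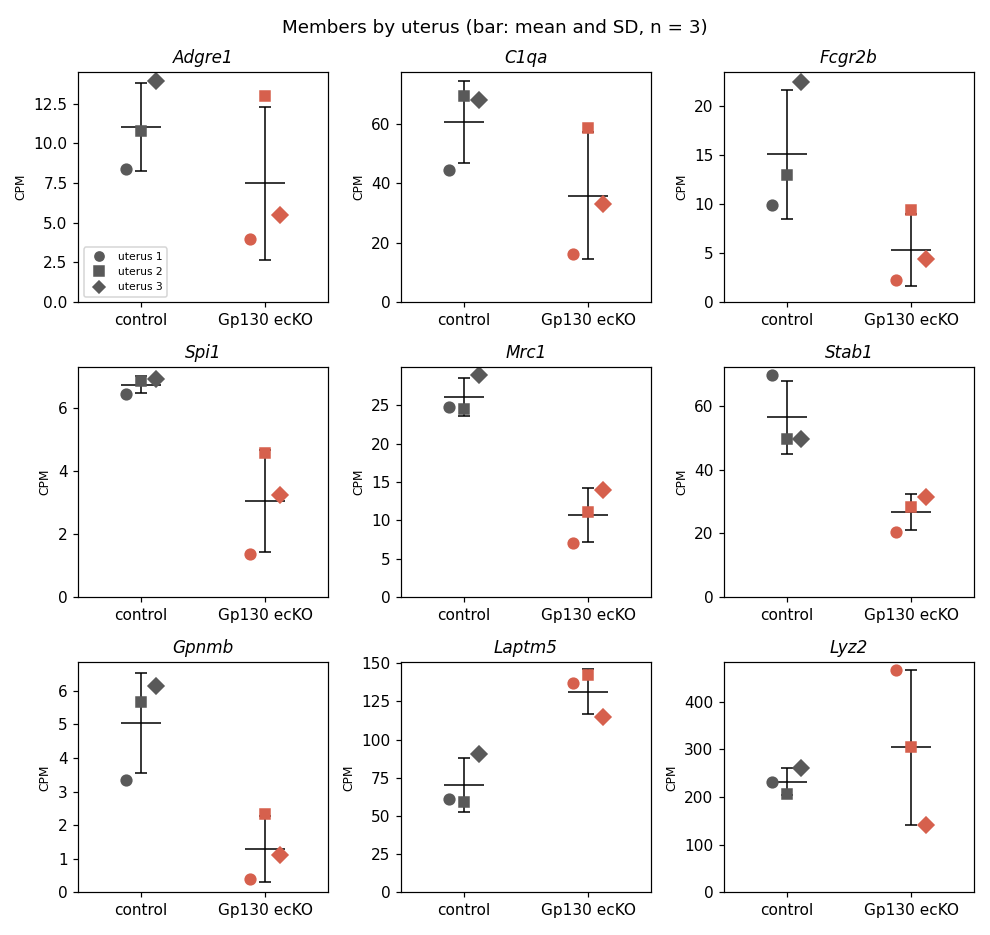
CPM of 9 genes in each uterus, on linear axes that start at 0, with the mean and SD of the 3 uteri of a group as a black bar; circles, squares and diamonds are uteri 1, 2 and 3 of a group. *Fcgr2b*, *Spi1*, *Mrc1*, *Stab1* and *Gpnmb* are lower and *Laptm5* higher in every *Gp130* ecKO uterus than in every control, whereas *Adgre1*, *C1qa* and *Lyz2* overlap.

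The complement C1q genes *C1qa*, *C1qb* and *C1qc*, which encode the chains of 1 protein, lie side by side on chromosome 4 between 136606009 and 136626161 (GRCm39) and had the same order of values in the *Gp130* ecKO uteri. *C1qa* measured 44.6, 69.3 and 68.1 CPM across controls 1 to 3 against 16.05, 58.5 and 33.04 CPM across *Gp130* ecKO 1 to 3. *Gp130* ecKO 1 and 3 lay below every control, and *Gp130* ecKO 2 lay inside the control range. The log2 fold changes were -0.76, -0.91 and -0.91 for *C1qa*, *C1qb* and *C1qc*, with adjusted p-values of 0.311, 0.239 and 0.2297. Without *Gp130* ecKO 2 they were -1.30, -1.37 and -1.35, and without *Gp130* ecKO 1 they were -0.40, -0.54 and -0.55. Of 6 genes of other classical pathway proteins, 4 were lower and 0 higher at an unadjusted p under 0.05 by the quasi-likelihood test, beside 12.9% and 12.1% of all tested genes. They were *Serping1*, *C1s1*, *C1ra* and *C4b*, with log2 fold changes of -1.89, -0.71, -0.74 and -1.46. *C2*, named after its values were seen, went the other way without overlap, at 27.4, 25.7 and 7.801 CPM across controls 1 to 3 against 27.7, 40.5 and 28.1 CPM across *Gp130* ecKO 1 to 3 (difference 0.65 ± 0.44, adjusted p = 0.382). *Serping1*, the gene of the inhibitor of the C1 proteases, measured 401, 221 and 194 CPM across controls 1 to 3 against 77.35, 66.03 and 76.8 CPM across *Gp130* ecKO 1 to 3 (difference -1.89 ± 0.29, adjusted p = 0.05485), where *Gp130* ecKO 2 was not the highest of its group.

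All 5 Fc receptor and adaptor genes had log2 fold changes below 0, beside 52.9% of all tested genes. In CPM, 3 of them, *Fcgr2b*, *Fcgr3* and *Fcer1g*, were lower without overlap between the groups, beside 15.6%. In TPM the groups of *Fcgr2b* and *Fcgr3* overlapped, at 8.99 and 13.25 in *Gp130* ecKO 2 against 7.24 and 11.56 in control 1. *Fcgr2b*, *Fcgr3* and *Fcer1g* lie within 276.0 kb on chromosome 1, between 170786186 and 171062219. *Fcgr2b*, the gene of the inhibitory IgG receptor, measured 9.87, 12.96 and 22.5 CPM across controls 1 to 3 against 2.215, 9.38 and 4.39 CPM across *Gp130* ecKO 1 to 3 (difference -1.49 ± 0.55, adjusted p = 0.158). The gap between the highest *Gp130* ecKO uterus, number 2, and the lowest control, number 1, was narrow, and the difference was -2.18 without *Gp130* ecKO 2. *Fcgr3*, the gene of an activating IgG receptor, measured 11.9, 13.15 and 21.9 CPM across controls 1 to 3 against 3.48, 11.1 and 6.55 CPM across *Gp130* ecKO 1 to 3 (difference -1.14 ± 0.45, adjusted p = 0.178). *Fcer1g*, which encodes the signalling chain that the activating Fc receptors share, measured 25.65, 24.02 and 42.01 CPM across controls 1 to 3 against 9.765, 20.5 and 11.15 CPM across *Gp130* ecKO 1 to 3 (difference -1.14 ± 0.36, adjusted p = 0.121). Both had their highest value in control 3 and their lowest in *Gp130* ecKO 1. *Fcgr1*, the gene of the high-affinity IgG receptor, and *Tyrobp*, the adaptor of TREM2, overlapped between the groups, with log2 fold changes of -0.53 and -0.82. That of *Fcgr1* was -0.08 without *Gp130* ecKO 1 and -1.001 without *Gp130* ecKO 2, and that of *Tyrobp* was -0.51 without *Gp130* ecKO 3 and -1.14 without *Gp130* ecKO 2. Of the 75-base stretches in the transcripts of *Fcgr3* and *Fcgr2b*, 4.27% and 3.78% also occur in another gene, most of all in the other of this pair, so only a small part of their reads could be divided between genes.

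Both transcription factor genes were below 0 in their fitted difference. *Spi1*, which encodes PU.1, measured 6.43, 6.86 and 6.93 CPM across controls 1 to 3, which lay close together, against 1.36, 4.58 and 3.23 CPM across *Gp130* ecKO 1 to 3 (difference -1.13 ± 0.44, adjusted p = 0.169). *Irf8* measured 17.15, 17.2 and 29.9 CPM across controls 1 to 3 against 11.9, 22.96 and 13.6 CPM across *Gp130* ecKO 1 to 3, and *Gp130* ecKO 2 exceeded controls 1 and 2 (difference -0.40 ± 0.34, adjusted p = 0.487). The difference of *Irf8* was -0.09 without control 3, -0.22 without *Gp130* ecKO 1, -0.26 without *Gp130* ecKO 3 and -0.74 without *Gp130* ecKO 2.

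PU.1 binds purine-rich elements around GGAA, and the letters before the start sites of the markers were searched for 3 longer strings that hold these letters. RefSeq windows of 250 bases before the start (GRCm38.p6) were at hand for 31 of the 41 genes, 36 windows in all. GAGGAAG, on either strand, occurred in 12 of the 36 windows (33.3%, in 10 genes) and in 10.61% of all 32851 windows of the table. The other two strings were GAGGAAGT, in 8.3% of the 36 windows and 2.44% of all windows, and AGGAAGT, in 22.2% and 7.69%. GAGGAAG was kept after the matches of the 3 had been seen, shorter forms were not searched, and a match describes letters, not binding. The sequences below are of *Stab1*, *Mrc1* and *Gpnmb*, the genes of lowest p among those whose window reached at least 150 bases outside the gene as GENCODE draws it. *Laptm5*, which was higher in *Gp130* ecKO, and *Batf3* had a lower p than *Gpnmb* but missed this length. Both have a window that holds GAGGAAG. Capitals mark GAGGAAG, here in its reverse form CTTCCTC, and each sequence runs 5' to 3' on the strand of the gene, placed on GRCm39 by an exact match and cut at the first base of the gene.
*Stab1*, chr14:30890599-30890848, minus strand: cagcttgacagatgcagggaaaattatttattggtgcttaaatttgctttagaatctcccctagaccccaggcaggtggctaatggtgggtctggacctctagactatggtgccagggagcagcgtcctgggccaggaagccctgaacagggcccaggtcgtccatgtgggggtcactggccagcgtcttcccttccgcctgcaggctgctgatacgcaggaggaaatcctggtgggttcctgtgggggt
*Mrc1*, chr2:14233975-14234150, plus strand: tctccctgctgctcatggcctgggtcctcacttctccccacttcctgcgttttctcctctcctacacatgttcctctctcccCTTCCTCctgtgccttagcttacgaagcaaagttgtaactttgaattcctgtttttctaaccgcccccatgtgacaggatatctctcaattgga
*Gpnmb*, chr6:49013202-49013425, plus strand: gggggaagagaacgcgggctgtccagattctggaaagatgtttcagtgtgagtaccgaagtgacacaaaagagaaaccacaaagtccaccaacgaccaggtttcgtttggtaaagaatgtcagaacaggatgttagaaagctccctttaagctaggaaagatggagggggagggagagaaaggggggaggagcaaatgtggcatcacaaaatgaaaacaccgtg
The 7 letters occur in the sequence of *Mrc1*, 168 bases before the RefSeq start, and not as a whole in those of *Stab1* and *Gpnmb*.

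Of the scavenger and uptake receptors, 4 of 7 could be tested, all 4 were below 0, and *Mrc1*, *Msr1* and *Stab1* were lower without overlap, beside 52.9% and 15.6% of all tested genes. *Mrc1*, the gene of the mannose receptor CD206 (ENSMUSG00000026712, chromosome 2, 14234151 to 14336926), measured 24.8, 24.5 and 28.9 CPM across controls 1 to 3 against 7.05, 11.1 and 14.01 CPM across *Gp130* ecKO 1 to 3. The highest *Gp130* ecKO uterus, number 3, was far below the lowest control. The difference was -1.28 ± 0.28 (adjusted p = 0.0804), which is 2.43-fold lower, and it ranged from -1.49 to -1.05 when each uterus was left out in turn. *Stab1*, the gene of the scavenger receptor stabilin-1 (ENSMUSG00000042286, chromosome 14, 30860970 to 30890598), measured 69.7, 49.7 and 49.7 CPM across controls 1 to 3 against 20.5, 28.15 and 31.4 CPM across *Gp130* ecKO 1 to 3. Its groups were as clearly apart, with control 1 the highest of the 6 uteri and *Gp130* ecKO 1 the lowest (difference -1.08 ± 0.23, adjusted p = 0.07704). *Msr1*, the gene of the class A scavenger receptor, was weakly expressed at 1.98, 1.77 and 3.27 CPM across controls 1 to 3 against 0.271, 1.19 and 0.497 CPM across *Gp130* ecKO 1 to 3 (difference -1.78 ± 0.56, adjusted p = 0.124), and its difference was -2.55 without *Gp130* ecKO 2. In *Mrc1* and *Stab1*, *Gp130* ecKO 2 was not the highest of its group, unlike in the C1q and Fc receptor genes.

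Certain endothelial cells also make *Mrc1* and *Stab1*. Transcripts of 5 blood endothelial markers summed to between 343 and 912 CPM in controls and between 199.9 and 360 CPM in *Gp130* ecKO uteri, with all 5 below 0 and 4 lower at an unadjusted p under 0.05, beside 52.9% and 12.9% of all tested genes. The 4 were *Kdr*, *Tie1*, *Pecam1* and *Cdh5*, with log2 fold changes of -1.26, -1.44, -1.20 and -0.94. Of 4 lymphatic endothelial markers, 3 were tested and 0 were lower at that p by edgeR's quasi-likelihood test, with sums of 41.7 to 91.1 CPM in controls and 24.4 to 44.9 CPM in *Gp130* ecKO uteri. No marker of the blood endothelial list was at 0 in any uterus, and the part of these cells in the values of *Mrc1* and *Stab1* was not tested. *Folr2*, the gene of folate receptor beta, overlapped between the groups (log2 fold change -0.73, and between -1.10, without *Gp130* ecKO 3, and -0.47, without control 2), and 42.23% of its 75-base stretches also lie on the opposite strand of another gene. The other 3 genes could not be tested. *Cd163*, a receptor gene for haemoglobin, had at most 13 counts in any uterus, *Timd4*, a receptor gene for dying cells, at most 2 and *Marco*, a scavenger receptor gene, at most 1. *Marco* had a count of 0 in all but *Gp130* ecKO 2, and a count of 0 allows up to 3 counts, so no difference was detectable for it at this depth.

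In the 5 monocyte and recruitment receptor genes the groups overlapped, as they did in most tested genes, of which 31.3% were without overlap. *Cd14*, a co-receptor for bacterial lipopolysaccharide that several cell types make, was the most abundant of this group at 98.4 TPM over the 6 uteri. It measured 101, 122 and 47.5 CPM across controls 1 to 3 against 93.7, 131 and 164 CPM across *Gp130* ecKO 1 to 3, with the lowest value in control 3 (difference 0.52 ± 0.36, adjusted p = 0.391). The difference of *Cd14* was 0.22 without control 3, 0.34 without *Gp130* ecKO 3 and 0.84 without control 2. *Csf2rb2*, which encodes a beta subunit of the interleukin 3 receptor, measured 23.6, 8.91 and 12.4 CPM across controls 1 to 3 against 3.39, 9.88 and 4.601 CPM across *Gp130* ecKO 1 to 3 (difference -1.33 ± 0.51, adjusted p = 0.169). The difference of *Csf2rb2* was -0.80 without control 1. *Gp130* ecKO 2 lay just above control 2 in it, and 10.63% of its 75-base stretches also occur in other genes, most of all in *Csf2rb*, a near copy. *Csf2rb* measured 18.9, 14.7 and 17.6 CPM across controls 1 to 3 against 2.76, 10.15 and 4.85 CPM across *Gp130* ecKO 1 to 3 (difference -1.52 ± 0.45, adjusted p = 0.115). The chemokine receptor genes *Cx3cr1* and *Ccr2* and the monocyte antigen gene *Ly6c2* had log2 fold changes of -0.38, -0.65 and -0.25. *Cx3cr1* and *Ly6c2* were above 0 when *Gp130* ecKO 1 was left out, at 0.04 and 0.23, and *Ly6c2* was 0.09 without control 3. Without *Gp130* ecKO 2 they were -1.40 and -1.32. *Ccr2* was -0.31 without control 3, -0.32 without *Gp130* ecKO 3 and -1.17 without *Gp130* ecKO 2. Of the stretches of *Ly6c2*, 24.25% occur in other genes, most of all in *Ly6c1*, so its counts depend on how RSEM divided those reads.

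*Clec4n*, the gene of the fungal receptor dectin-2, was the C-type lectin gene with separate groups, at 2.55, 1.54 and 2.93 CPM across controls 1 to 3 against 0.226, 0.8845 and 0.953 CPM across *Gp130* ecKO 1 to 3 (difference -1.73 ± 0.54, adjusted p = 0.1225). *Clec7a*, the gene of dectin-1, measured 5.87, 9.95 and 8.001 CPM across controls 1 to 3 against 1.899, 13.96 and 5.18 CPM across *Gp130* ecKO 1 to 3 (difference -0.17 ± 0.64, adjusted p = 0.879). Its lowest and its highest uterus both belonged to *Gp130* ecKO, and the difference became 0.28 without *Gp130* ecKO 1, 0.07 without control 2, 0.04 without *Gp130* ecKO 3 and -1.16 without *Gp130* ecKO 2. *Clec10a* and *Cd209a* overlapped as well, with log2 fold changes of -0.56 and 0.02, and *Cd209a* was below 0 under library totals and upper quartile scaling, at -0.02 and -0.05, and without control 1, *Gp130* ecKO 1 and *Gp130* ecKO 2, at -0.08, -0.10 and -0.23. *Clec10a* was -0.30 without *Gp130* ecKO 3, -0.33 without control 2 and -0.88 without *Gp130* ecKO 2.

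The dendritic cell genes were split. *Batf3*, a transcription factor gene of cross-presenting dendritic cells, measured 1.62, 0.848 and 2.2 CPM across controls 1 to 3 against 0.407, 0.4999 and 0.497 CPM across *Gp130* ecKO 1 to 3 (difference -1.68 ± 0.49, adjusted p = 0.112). The 3 *Gp130* ecKO values lay close together, at 9 to 13 counts, and below every control. On the opposite strand of another gene lie 23.08% of its 75-base stretches. *Xcr1*, the chemokine receptor gene of the same cells, was far weaker than *Batf3* at 0.32 against 1.94 TPM, and its groups overlapped from 0.4145 to 1.81 CPM, both ends in *Gp130* ecKO. Of the stretches of *Xcr1*, 23.2% also lie on the opposite strand of another gene. *Zbtb46*, a transcription factor gene of classical dendritic cells and of endothelium, measured 11.2, 16.2 and 20.4 CPM across controls 1 to 3 against 11.03, 27.65 and 9.45 CPM across *Gp130* ecKO 1 to 3 (difference 0.02 ± 0.45, adjusted p = 0.9845). *Flt3*, the receptor gene for the growth factor of dendritic cell precursors, had a log2 fold change of -0.61, which became 0.06 without control 3 and -1.22 without *Gp130* ecKO 2. The differences of *Xcr1* and *Zbtb46* were within 0.02 of 0 and were -0.80 and -0.63 without *Gp130* ecKO 2. Of 10 further monocyte and dendritic cell genes tested, 6 had log2 fold changes below 0 and 4 above 0. At an unadjusted p under 0.05, 3 were lower (beside 12.9% of all tested genes) and 1 was higher (beside 12.1%), namely *Fscn1*, *Clec9a* and *Plac8* at -1.46, -1.83 and -0.77 and *Cd24a* at 0.71. Other cell types also make *Fscn1*, *Plac8* and *Cd24a*. The other genes above 0, named after their values were seen, were the integrin genes *Itgax* and *Itgae* and the transcription factor gene *Irf4*, with overlapping groups and log2 fold changes of 0.17, 0.35 and 0.58. *Clec9a*, another gene of cross-presenting dendritic cells, measured 2.95, 2.66 and 5.601 CPM across controls 1 to 3 against 1.27, 1.615 and 0.207 CPM across *Gp130* ecKO 1 to 3 (difference -1.83 ± 0.65, adjusted p = 0.149). *Clec9a* held 5 counts in *Gp130* ecKO 3 and 10 or more in every control. Like *Batf3*, it passed the filter on low counts largely through the control group.

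Genes of activation states included the largest difference among the 38. *Gpnmb*, which encodes a glycoprotein of lipid-laden macrophages (ENSMUSG00000029816, chromosome 6, 49013426 to 49047863), measured 3.36, 5.67 and 6.13 CPM across controls 1 to 3 against 0.407, 2.35 and 1.12 CPM across *Gp130* ecKO 1 to 3. The groups did not overlap in CPM but did in TPM, and the value was 3.84-fold lower (difference -1.94 ± 0.58, adjusted p = 0.116). Without *Gp130* ecKO 2 the difference of *Gpnmb* was -2.70. *Trem2*, a lipid receptor gene of tissue macrophages, measured 5.785, 7.635 and 12.9 CPM across controls 1 to 3 against 1.49, 5.73 and 3.77 CPM across *Gp130* ecKO 1 to 3 (difference -1.24 ± 0.52, adjusted p = 0.197). Here *Gp130* ecKO 2 came within a small margin of control 1 in CPM and was above it in TPM. *Nos2*, which encodes inducible nitric oxide synthase, measured 3.03, 2.04 and 1.33 CPM across controls 1 to 3 against 0.136, 1.35 and 0.663 CPM across *Gp130* ecKO 1 to 3 (difference -1.57 ± 0.66, adjusted p = 0.197), and control 3 and *Gp130* ecKO 2 nearly coincided. Without *Gp130* ecKO 2 the difference of *Nos2* was -2.40. *Cybb*, the catalytic subunit gene of the phagocyte oxidase, had a log2 fold change of 0.06, which became -0.89 without *Gp130* ecKO 2, whose 14.7 CPM was the highest of the 6. In each of the 16 tested genes whose values are not given for every uterus, here and in the other role groups, the groups overlapped, and their adjusted p ran from 0.2297 in *C1qc* to 0.9995 in *Xcr1*.

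The *Gp130* ecKO uteri differed from each other in these genes more than the controls did. For the ratios here 0.5 was added to each CPM, which draws those of weak genes toward 1. The highest over the lowest value within the group had a median of 2.73 over the 38 genes in *Gp130* ecKO and of 1.67 in controls, beside 1.43 and 1.53 over all tested genes. Relative to the control mean, the median gene stood at 0.35 in *Gp130* ecKO 1, 0.547 in *Gp130* ecKO 3 and 0.894 in *Gp130* ecKO 2. *Gp130* ecKO 2 exceeded *Gp130* ecKO 1 in 36 of the 38 genes (48.7% of all tested genes), and the order 1, 3, 2 from lowest to highest held in 20 (14.9% of all tested genes). *Gp130* ecKO 1 held the lowest of the 6 values in 26 genes (20.8% of all tested genes), and control 3, the smallest library, held the highest in 19 (27.5% of all tested genes). The genes share these libraries, so the counts describe the libraries and are not 38 separate observations.

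**Figure D3:**
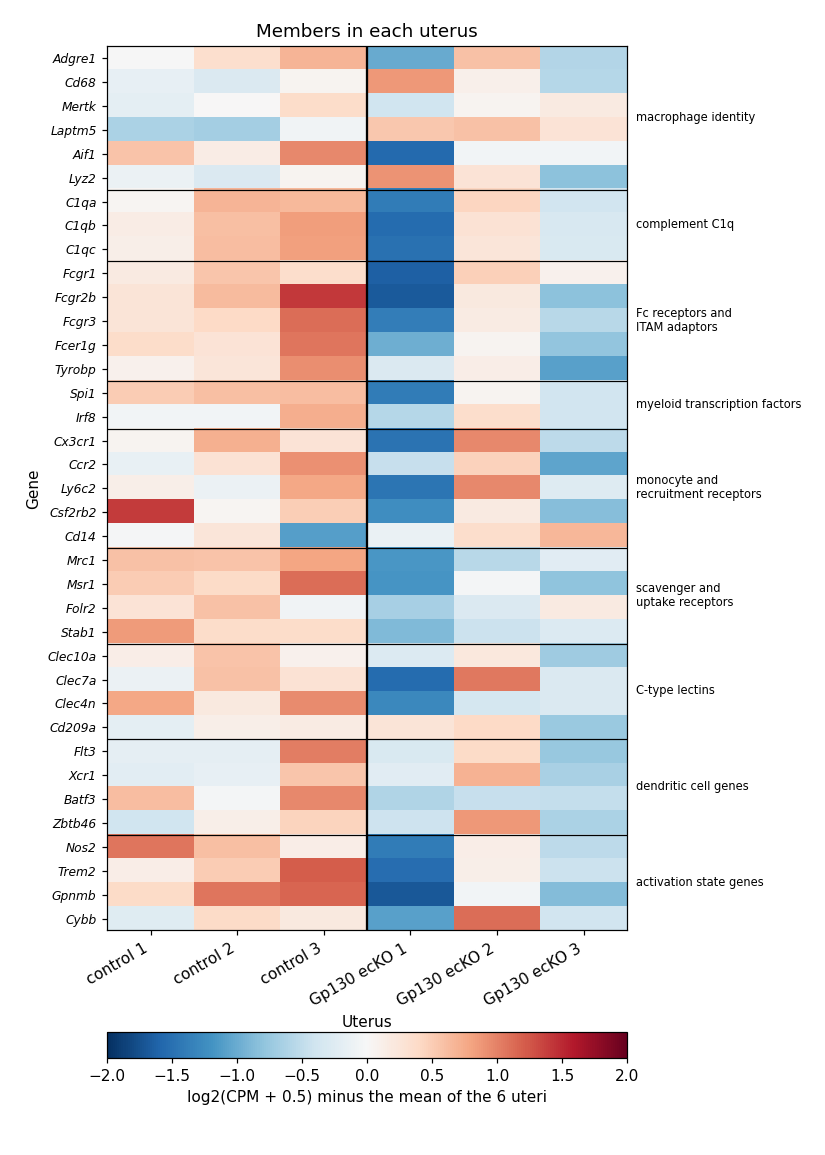
Heat map of log2(CPM + 0.5) of 37 of the 38 tested genes, each minus its mean over the 6 uteri, with genes in rows by role and uteri in columns; the colour scale runs from -2 (blue) to 2 (red). *Gp130* ecKO 1 holds the lowest value in 26 genes, *Gp130* ecKO 2 holds the lowest in 0 and the highest in 8, and *Laptm5*, *Lyz2* and *Cd68* are red in *Gp130* ecKO 1.

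Other cell types also varied between these uteri. Red blood cell transcripts, 5 genes, summed to 323 CPM in *Gp130* ecKO 2 and to 61.5 and 47.7 CPM in *Gp130* ecKO 1 and 3, beside 179 to 338 CPM in controls. Lymphocyte transcripts, 10 genes, were also highest in *Gp130* ecKO 2 within that group, at 31.3 CPM in *Gp130* ecKO 2, 11.98 and 7.79 CPM in *Gp130* ecKO 1 and 3 and 19.1 to 28.0 CPM in controls, with 0 of 8 tested genes lower at an unadjusted p under 0.05 by the quasi-likelihood test. Stromal transcripts, 5 genes, summed to 3132 to 3927 CPM in controls and 1577 to 2306 CPM in *Gp130* ecKO uteri, with 3 lower at that p, beside 12.9% of all tested genes (*Vim*, *Hand2* and *Col1a1*, at -1.02, -1.09 and -0.77). Of 4 eosinophil and mast cell genes tested, 1 was lower, *Kit*, at -1.07. Neutrophil markers were scarce, at 5.93 to 9.45 CPM in controls and 1.22 to 4.64 CPM in *Gp130* ecKO uteri for 8 genes. Of 5 tested, the 3 lower at that p, *S100a8*, *S100a9* and *Retnlg*, had fewer than 10 counts in at least 2 *Gp130* ecKO uteri and passed the filter on low counts largely through the control group, so the filter in part decides their number. Of these 3 genes, *S100a8* had a count of 0 in *Gp130* ecKO 1, *S100a9* had a count of 0 in *Gp130* ecKO 1 and 2, and *Retnlg* measured 1.13, 3.12 and 0.533 CPM across controls 1 to 3 against 0.271, 0.154 and 0.166 CPM across *Gp130* ecKO 1 to 3. *Ly6g*, named after its values were seen, had a difference above 0, at 1.08 ± 0.73 (adjusted p = 0.385), with overlapping groups. The part of these cell types in the values of the macrophage and dendritic cell genes was not tested.

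**Figure D4:**
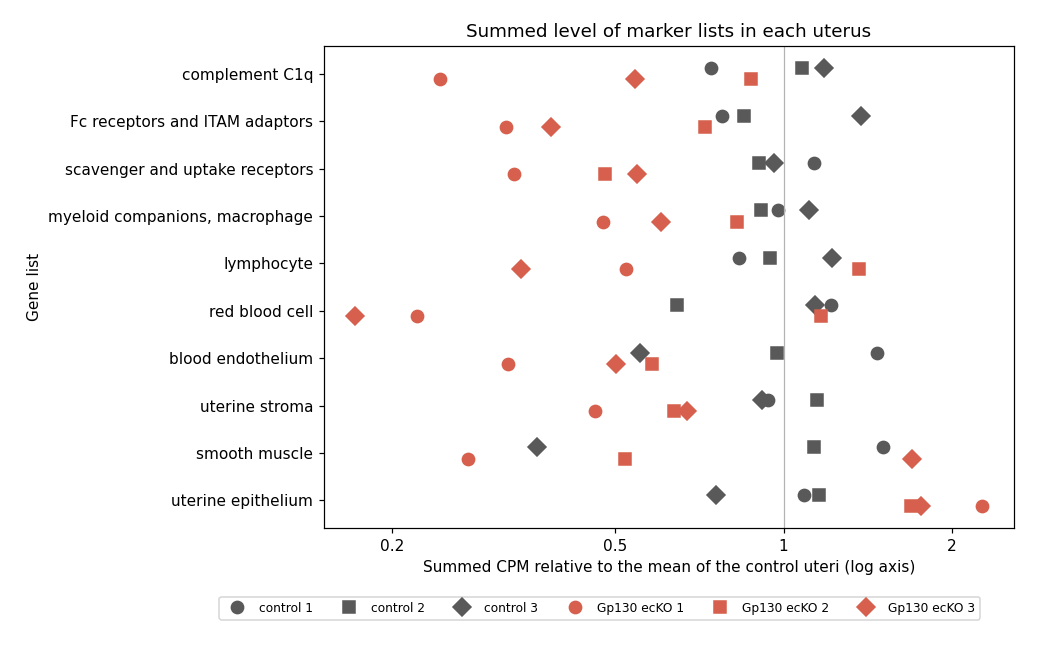
Summed CPM of 10 gene lists in each uterus, divided by the mean of the 3 control uteri, on a log axis; grey symbols are controls and red symbols are *Gp130* ecKO uteri, with circles, squares and diamonds for uteri 1, 2 and 3. The epithelial sum is above every control in the *Gp130* ecKO uteri, the stromal sum is below, and red squares (*Gp130* ecKO 2) stand highest of their group for C1q, Fc receptors, lymphocytes and red blood cells.

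A further 20 macrophage genes outside the 41 were compared in the same way. Of 18 that could be tested, all 18 had a log2 fold change below 0, beside 52.9% of all tested genes. Of these, 3 were lower at an unadjusted p under 0.05 (beside 12.9%) and 0 were called by the quasi-likelihood test. This list, too, was chosen with earlier results of these data known. Its genes were measured in the same libraries as the 41, so the 18 are not separate observations. *Maf*, a transcription factor gene that macrophages share with other cells, measured 69.9, 75.2 and 92.3 CPM across controls 1 to 3 against 28.35, 33.6 and 38.5 CPM across *Gp130* ecKO 1 to 3 (difference -1.24 ± 0.19, adjusted p = 0.05485). *Sirpa*, the receptor gene for the signal CD47, measured 52.9, 41.5 and 60.6 CPM across controls 1 to 3 against 20.4, 31.2 and 30.4 CPM across *Gp130* ecKO 1 to 3 (difference -0.92 ± 0.24, adjusted p = 0.0951). In *Maf* and *Sirpa* every *Gp130* ecKO uterus lay below every control, as in 15.6% of all tested genes. *Csf1r*, the receptor gene on which most macrophages depend, measured 17.1, 23.6 and 24.5 CPM across controls 1 to 3 against 9.49, 21.15 and 12.15 CPM across *Gp130* ecKO 1 to 3, and *Gp130* ecKO 2 lay inside the control range (difference -0.60 ± 0.33, adjusted p = 0.294).

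Of 12 genes of growth factors, chemoattractants and their receptors tested, 5 (the receptor gene *Csf2rb* among them) were lower and 1 was higher at an unadjusted p under 0.05, beside 12.9% and 12.1% of all tested genes. *Csf1* and *Il34* encode the ligands of the receptor made from *Csf1r*. *Il34* measured 3.88, 1.39 and 1.53 CPM across controls 1 to 3 against 0.5425, 0.4615 and 0.456 CPM across *Gp130* ecKO 1 to 3 (difference -2.23 ± 0.55, adjusted p = 0.0918), and *Csf1*, named with it after its values were seen, measured 33.98, 11.8 and 13.7 CPM against 7.46, 7.345 and 7.88 CPM (difference -1.39 ± 0.42, adjusted p = 0.117). Control 1 was well above the other two controls in both. *Ccl7*, a monocyte chemoattractant gene, measured 2.39, 4.203 and 6.601 CPM across controls 1 to 3 against 0.181, 0.846 and 1.53 CPM across *Gp130* ecKO 1 to 3 (difference -2.33 ± 0.67, adjusted p = 0.112). It held 4 counts in *Gp130* ecKO 1, and *Ccl12*, another of the 5 lower genes, named for its low counts, held 9 there. Both held 40 or more in every control and so passed the filter on low counts largely through the control group. *Csf3*, the gene of granulocyte colony-stimulating factor, was the higher one, at 0.607, 2.89 and 2.33 CPM across controls 1 to 3 against 31.4, 32.6 and 11.9 CPM across *Gp130* ecKO 1 to 3 (difference 3.71 ± 0.63, adjusted p = 0.0616). Of the 12 genes, 6 were lower and 1 was higher without overlap, *Il34*, *Csf1*, *Ccl7* and *Csf3* among them, beside 15.6% and 15.7% of all tested genes.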

How the data were processed

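RNA-seq of 6 whole uteri was used. Per the methods, strand-specific poly(A) libraries were read as single reads of 75 bp, and the authors trimmed reads with fastp 0.23.2, removed ribosomal reads with SortMeRNA, mapped to GRCm39 with STAR 2.7.10a and estimated counts with RSEM 1.3.3. The annotation version and the strand setting of counting are not given in the sources used here, so genes with an antisense partner are uncertain. The deposited expected counts were not normalized by the authors, and RSEM divides reads shared between genes. The deposited TPM values, which the authors' RSEM run scales to transcript length and library size, were not used for testing. They served to compare levels between genes and to see whether groups without overlap in CPM also stood apart in TPM.

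Expected counts were rounded and tested in R 4.3.3 with edgeR 4.0.16 (filterByExpr, TMM, glmQLFit and glmQLFTest, Benjamini-Hochberg adjustment over 16605 genes, FDR under 0.05 and more than 2-fold). DESeq2 1.42.0 was an alternative, as were other tests, scalings, filters and leaving out each uterus. Standard errors are the log2 fold change over the square root of F. The analysis was tested on simulated data. Symbols came from GENCODE M39, which held 56017 of the 56748 identifiers. Stretches of 75 bases shared between transcripts were counted in the same annotation.

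Of the 38 tested genes, 1 is included in the counts but not reported here by name. The 41 genes and all lists were chosen with earlier results of these data known. Values in every uterus are given for *Adgre1*, for genes with an unadjusted p under 0.05 or no overlap, and for the gene of highest mean TPM of each role group. Of the other lists, up to 4 genes of lowest p are named for those that bear on the 41 genes.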

Additional observations from a re-analysis of the deposited data

How the results depend on the processing

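The quasi-likelihood test called 0 of the 38 genes under every scaling, filter, rounding and left-out uterus and without the fold threshold, settings in which it called 0.00582% to 0.351% of all tested genes, except for 5.23% without control 2, whereas edgeR's exact test called 4 and the likelihood ratio test and DESeq2 called 5 each. With each uterus left out in turn, the lower genes at an unadjusted p under 0.05 numbered 5 to 20, the higher ones 1 to 2, the genes without overlap 13 to 31 (36.2% to 45.6% of all tested genes, and the 13 without control 2, 34.2%, lie below the 45.6% there) and the median log2 fold change ran from -1.22 to -0.50. Replicate numbers did not pair the samples (correlations of deviations 0.104, 0.0691 and -0.196), and with the replicate block 0 genes were called, the median was -0.76 and log2 fold changes of 4 genes turned sign.

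Among the genes reported by name, log2 fold changes of 11 turned sign in at least 1 alternative. *Xcr1* was -0.04895 in the exact and likelihood ratio tests, -0.0481 in the legacy form, -0.0394 in DESeq2, -0.0383 with library totals, -0.0686 with upper quartile scaling, -0.00815 with unrounded counts and -0.0793 with the replicate block. *Cd209a* was -0.0188, -0.0497 and -0.0261 with library totals, upper quartile scaling and the replicate block, and *Zbtb46* was -0.02875, -0.0545 and -0.1045. With the replicate block, *Cybb* was -0.2252. With each uterus left out in turn, the ranges were -0.0675 to 0.71 for *Cd68*, -0.22 to 0.0520 for *Mertk*, -0.0516 to 0.76 for *Lyz2*, -1.40 to 0.0429 for *Cx3cr1*, -1.32 to 0.23 for *Ly6c2*, -1.16 to 0.28 for *Clec7a*, -0.23 to 0.38 for *Cd209a*, -1.22 to 0.0605 for *Flt3*, -0.80 to 0.40 for *Xcr1*, -0.63 to 0.32 for *Zbtb46* and -0.89 to 0.46 for *Cybb*. The cause of these changes was not tested. Depth limits control 3 most, with 13960748 counts.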
